A study of Mus musculus with 6 samples.

Results

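The wells named AF0 and NF0 on the fibroblast chip hold single cardiac fibroblasts of adult (AF) and neonatal (NF) mouse hearts, and they were compared across all genes. They were chosen by the name that the chip's report gives each well, AF0_1, AF0_2, NF0_1 or NF0_2, after leaving out control wells and wells with under 500 genes of the nuclear genome. This kept 77 wells of AF0_1, 116 of AF0_2, 185 of NF0_1 and 160 of NF0_2, so 193 AF0 and 345 NF0 wells. These 538 wells were part of 1044 kept wells on the chip and of 2462 wells on both chips of the series. The study asks how fibroblasts of different age act on immature cardiomyocytes grown with them, and sequenced 4 bulk libraries of cardiomyocytes and 2 nanowell chips of single cells. The labels give the mice as C57BL/6, and the study's methods name C57BL/6J for part of the cell preparations. Per the study's methods, neonatal fibroblasts were the cells of enzyme-digested left ventricles, taken on the first day after birth, that stuck to a dish, and adult fibroblasts came from left ventricles of hearts perfused with collagenase. Per those methods, isolated fibroblasts were passaged in serum-containing medium before co-culture. The AF0 and NF0 wells are therefore taken to hold cultured cells and not cells fresh from a heart, which is not stated for these wells.

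What the 0 in the names stands for is not defined by the labels, nor is it stated whether AF0_1 and AF0_2, or NF0_1 and NF0_2, were separate cultures or animals. The chip is 1 sample of the series, and each name came from 1 dispenser source well, so name and dispensed suspension cannot be told apart. For this reason no p-value is given for any difference. The wells of each name were summed into a pool, and a level is given in counts of unique molecular identifiers (UMIs, tags that mark single captured transcripts) per 1000000 counts (CPM). In what follows, the values of AF0_1 and AF0_2 are given in that order as the levels in AF0, and those of NF0_1 and NF0_2 as the levels in NF0. A gene is called higher or lower in AF0 only where each AF0 pool differed from each NF0 pool by at least 2-fold in the same direction, that is in all 4 pairs of pools. The fold itself is the ratio of all AF0 to all NF0 wells, and its 95% interval is an exact one that covers counting error only.

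Cardiac fibroblasts make and turn over the collagen-rich matrix of the heart wall, and they signal to cardiomyocytes, vessels and immune cells through secreted factors. Around birth they take part in building the growing ventricle, with periostin as a well known product, while in the adult heart they maintain the matrix and can take on inflammatory or contractile states after injury. Growth on plastic in serum brings out contractile and wound-type genes in fibroblasts of any age.

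The pools summed to 4028188 and 8249242 UMIs in AF0 and to 5222888 and 14986621 UMIs in NF0. Median UMIs per well were 36792 and 53043.5 in AF0_1 and AF0_2 and 18487 and 70549 in NF0_1 and NF0_2, so the deepest and the shallowest wells were both neonatal. Median genes per well ran from 2980 to 5401.5, the median share of aligned read pairs from 65.8% to 77.0%, and mitochondrial transcripts from 4.95% to 7.98% of UMIs. The 5 negative control wells held a median of 217 UMIs. Of the 538 barcodes, 146 also name a well on the cardiomyocyte chip. Within a name, 8.86% of the 8536 genes compared differed by 2-fold or more between AF0_1 and AF0_2, and 8.22% between NF0_1 and NF0_2. Across names, the share was between 17.5% and 26.2% in the 4 pairs of an AF0 with an NF0 pool.

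The label of the wells was checked first. Of the 6 fibroblast markers, Col1a1, a chain of type I collagen, stood at 1324 and 1187 CPM in AF0 and 1455 and 1697 CPM in NF0. Col1a2, the other chain of that collagen, stood at 915 and 865 CPM in AF0 and 853 and 1088 CPM in NF0. The 6 markers together came to 3151 and 2815 CPM in AF0 and 3337 and 3754 CPM in NF0, so both kinds of wells carried fibroblast transcripts at a like level. Transcripts of other cell types were not evenly spread. Cardiomyocyte markers summed to 322 and 165 CPM in AF0 and 4792 and 3979.8 CPM in NF0, with 10 of 10 compared members lower in AF0. Their defining members were far from 0 in NF0, and Tnnt2, cardiac troponin T, stood at 135 and 121 CPM in AF0 and 2012 and 1894 CPM in NF0. Macrophage markers summed to 194 and 47.8 CPM in AF0 and 549.9 and 1398 CPM in NF0, with 6 of 7 lower in AF0. Endothelial markers summed to 697 and 611 CPM in AF0 and 288 and 296 CPM in NF0, with 4 of 5 higher in AF0. Of the 10 endothelial members, compared or not, Fabp4, Kdr and Ptprb had log2 ratios below 0 (-1.66, -0.40 and -0.64) and the others above 0. Mesothelial markers summed to 385 and 363 CPM in AF0 and 24.3 and 41.8 CPM in NF0, with 3 of 3 higher. For mural cells (pericytes and smooth muscle), the sums were 416 and 290.3 CPM in AF0 and 494 and 553 CPM in NF0, with 2 of 4 compared members, Cspg4 and Notch3, lower in AF0. Of the 8 mural members, compared or not, Myh11 and Kcnj8 had log2 ratios above 0 (4.98 and 0.13) and the others below 0. Neither Myh11 nor Kcnj8 was among the compared members, and Kcnj8 had no UMI in NF0, so its ratio is a bound. Glial and adipocyte markers summed to at most 14.6 and 14.3 CPM in any pool, and none of their members reached the level needed for comparison.

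These transcripts were spread over wells in different ways. The median well held 75.2 and 98.0 CPM of cardiomyocyte markers in AF0_1 and AF0_2 but 1406 and 1827 CPM in NF0_1 and NF0_2, and in NF0 only 10% of wells lay below 348 and 717 CPM. In 70 of 345 NF0 wells (20.3%, exact interval 16.2% to 24.9%) and 1 of 193 AF0 wells, cardiomyocyte marker UMIs outnumbered those of the fibroblast markers. Macrophage markers, in contrast, had a median of 0 and 68.5 CPM per well in NF0_1 and NF0_2 and a maximum of 31943 and 36250 CPM, so that few wells carried most of them, and with wells led by another type's markers left out, 0 of 3 compared macrophage markers were lower in AF0. Endothelial markers led in 12 AF0 and 3 NF0 wells, and no well was led by mesothelial markers. In all, 14 of 193 AF0 wells (7.25%, interval 4.02% to 11.9%) and 81 of 345 NF0 wells (23.5%, interval 19.1% to 28.3%) held more UMIs of another type's markers than of the fibroblast markers. The intervals of these shares take wells as separate draws. They cover counting error only and no spread between cultures or animals. Whether UMIs of another type's markers came from a second cell in the well, from free RNA or from the named cell itself cannot be told apart here. No doublet caller was run, and per the study's methods wells with single live cells were picked by imaging. Leaving out wells led by another type's markers selects on the marker genes themselves, Postn and Dcn among them.

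**Figure D1:**
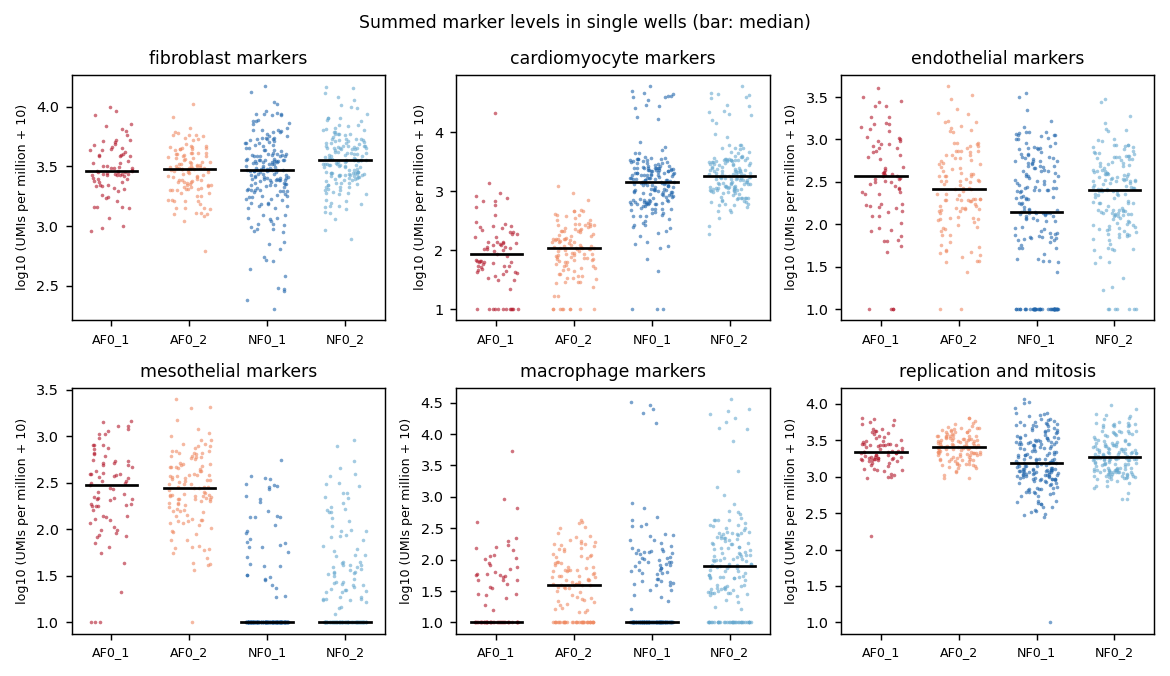
Summed level of each cell type's marker genes in single wells, in CPM on a log axis, for AF0_1, AF0_2, NF0_1 and NF0_2. Each point is 1 well and the bars are medians. Fibroblast markers overlap between ages, while the median well held 75.2 and 98.0 CPM of cardiomyocyte markers in AF0 and 1406 and 1827 CPM in NF0.

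Sex-linked transcripts also separated the wells. The study's notes name male adult mice unless otherwise specified. The 4 Y-linked genes (Ddx3y, Eif2s3y, Kdm5d and Uty) together gave 10 and 31 UMIs in AF0_1 and AF0_2, or 2.48 and 3.76 CPM, but 82.7 and 77.1 CPM in NF0_1 and NF0_2. The adult wells of the same chip named without a 0 held 75.9 and 48.3 CPM. Of the AF0 wells, 0 of 77 and 3 of 116 held over 2 Y-linked UMIs, against 42 of 185 and 73 of 160 NF0 wells. Xist, the RNA that silences an X chromosome in female cells, had a UMI in 74.0% and 69.0% of AF0 wells and in 25.9% and 39.4% of NF0 wells. The AF0 wells therefore went against the description as male, whereas the NF0 wells held both kinds. Age and sex cannot be fully told apart in the comparison, and for the gene lists described below the counts in wells with an Xist UMI and no Y-linked UMI, called Xist-selected wells, stand in parentheses. These wells were chosen after the data were seen.

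Adult and neonatal wells differed in a broad set of genes. Of 8536 genes compared (mean of both group levels at least 10 CPM, a UMI in at least 10 wells), 464 (5.44%) were higher and 211 (2.47%) were lower in AF0. The median log2 ratio of AF0 to NF0 over all genes was 0.13, so the centre of the distribution lay slightly above 0. With TMM scaling, which aligns the bulk of genes, the median was 0.0082 and the counts became 382 higher and 305 lower, that is 55.6% of the called genes higher in place of 68.7%. In wells with an Xist UMI and no Y-linked UMI (50, 63, 30 and 20 wells of AF0_1, AF0_2, NF0_1 and NF0_2), 585 of 8450 compared genes were higher and 195 lower. The list counts in parentheses below are to be read beside these counts over all genes. Without wells led by another type's markers, 467 were higher and 169 lower, and with cardiomyocyte marker UMIs taken out of the totals and wells over 5000 CPM of them left out, 480 were higher and 182 lower. Each of these alternatives kept more higher than lower genes.

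The leading adult genes were a mixed group of an interferon-induced GTPase, coagulation regulators, inflammatory mediators and cathepsin inhibitors. They are the 12 with the largest smallest ratio over the 4 pairs, at a mean level of at least 50 CPM. Gvin1, a very large GTPase induced by interferon (chr7:106156556-106215326, mm10), stood at 235 and 336 CPM in AF0 and 1.34 and 2.80 CPM in NF0 and was 125-fold higher in AF0, interval 94.2 to 169. No adult pool came near a neonatal one, and the smallest ratio over the pairs was 83.7. Asb5, an ankyrin repeat protein of the ubiquitin ligase adaptors, stood at 135 and 98.2 CPM in AF0 and 1.34 and 1.802 CPM in NF0 (65.6-fold higher in AF0, interval 46.7 to 95.1). F3, tissue factor, which starts coagulation, stood at 199 and 166 CPM in AF0 and 3.45 and 4.74 CPM in NF0 (40.2-fold higher in AF0, interval 32.6 to 50.3). Thbd, thrombomodulin, which restrains coagulation at cell surfaces, was at 109 and 98.1 CPM in AF0 and 5.55 and 1.87 CPM in NF0 (36.0-fold higher in AF0, interval 27.6 to 47.9). Genes with opposite roles in clotting were thus both higher in the adult wells.

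Among inflammatory mediators, Cxcl5, a chemokine that draws neutrophils, stood at 303 and 579.6 CPM in AF0 and 8.62 and 13.1 CPM in NF0 (41.0-fold higher in AF0, interval 36.0 to 46.8). Ptgs2, the inducible prostaglandin synthase, stood at 174 and 156 CPM in AF0 and 5.36 and 8.54 CPM in NF0 (20.98-fold higher in AF0, interval 17.8 to 24.9). Mmp3, stromelysin 1, which cleaves many matrix proteins, stood at 130.3 and 144 CPM in AF0 and 1.91 and 3.87 CPM in NF0 (41.5-fold higher in AF0, interval 32.5 to 53.6). In each of these 3 genes the lowest adult pool was at least 18.3 times the highest neonatal one. Ctla2a, an inhibitor of cathepsin-type proteases, stood at 8418 and 4361 CPM in AF0 and 218 and 278 CPM in NF0 (21.7-fold higher in AF0, interval 21.1 to 22.3), and its near-identical neighbour Ctla2b at 442 and 148 CPM in AF0 and 9.76 and 13.2 CPM in NF0. Reads shared by this pair could be split either way, so the single values are uncertain. Ly6k, a surface protein of the Ly6 family, was at 67.8 and 136 CPM in AF0 and 0.957 and 4.87 CPM in NF0 (29.5-fold higher in AF0, interval 23.5 to 37.6). Upk1b, a uroplakin that mesothelial cells also make, was at 235 and 231 CPM in AF0 and 11.1 and 17.6 CPM in NF0 (14.6-fold higher in AF0, interval 13.0 to 16.4). Emcn, endomucin, a sialomucin of endothelial surfaces, was at 226 and 242 CPM in AF0 and 5.36 and 9.34 CPM in NF0 (28.4-fold higher in AF0, interval 24.3 to 33.4), and its log2 ratio was 3.59 without wells over 500 CPM of endothelial markers, against 4.83 in all wells. Emcn is itself 1 of those markers, so these wells were left out partly by its own level. Without wells over 500 CPM of endothelial markers the log2 ratios of Ctla2a and Ctla2b were 2.86 and 2.94, against 4.44 and 4.31.

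**Figure D2:**
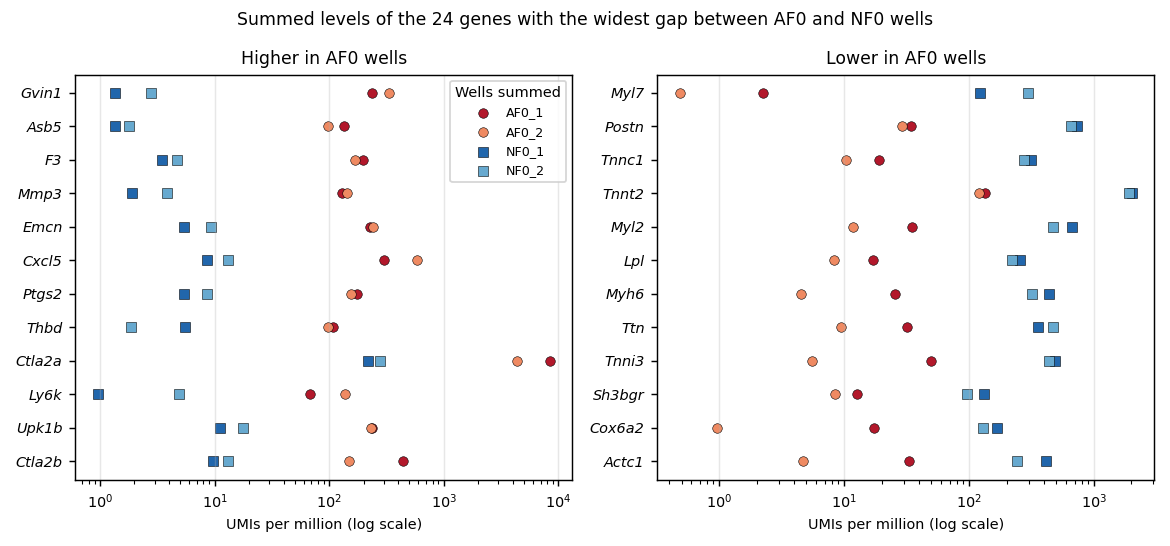
Level in CPM (log axis) of the 12 leading genes in each direction, with 1 point for each of the pools AF0_1, AF0_2, NF0_1 and NF0_2. In every gene shown the adult and the neonatal points do not overlap, for example 235 and 336 against 1.34 and 2.80 CPM for Gvin1.

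Of the 12 leading genes lower in AF0, Postn and Lpl are products of non-muscle cells as well, and the other 10 encode proteins abundant in heart muscle. Postn, periostin, a matricellular protein of the developing and injured heart (chr3:54361109-54391037, mm10), stood at 34.3 and 28.97 CPM in AF0 and 738 and 654 CPM in NF0 (21.99-fold lower in AF0, interval 19.9 to 24.4). Lpl, lipoprotein lipase, stood at 17.1 and 8.36 CPM in AF0 and 257 and 220.0 CPM in NF0 (20.4-fold lower in AF0, interval 17.2 to 24.4). Each neonatal pool lay far above each adult one for both genes. Without wells led by another type's markers, the log2 ratio of Postn was -4.50 against -4.46 in all wells, and in Xist-positive wells without a Y-linked UMI it was -4.58.

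The muscle genes belong with the cardiomyocyte markers described above, and their part in other differences was not tested. Myl7, the atrial myosin light chain, had the largest ratio, at 2.23 and 0.485 CPM in AF0 and 122 and 298 CPM in NF0 (239-fold lower in AF0, interval 139 to 449). Tnnt2 was 15.4-fold lower in AF0, interval 14.6 to 16.2. Myl2, the ventricular myosin light chain, stood at 35.003 and 11.8 CPM in AF0 and 672 and 468 CPM in NF0. Myh6, a cardiac myosin heavy chain, stood at 25.6 and 4.49 CPM in AF0 and 435 and 321 CPM in NF0, and Ttn, titin, at 32.0 and 9.46 CPM in AF0 and 358 and 467 CPM in NF0. Of the thin filament genes, Tnni3 stood at 49.7 and 5.58 CPM in AF0 and 491 and 434 CPM in NF0, Tnnc1 at 19.1 and 10.3 CPM in AF0 and 314 and 278 CPM in NF0 and Actc1 at 33.3 and 4.73 CPM in AF0 and 415 and 241 CPM in NF0. Cox6a2, a subunit of cytochrome oxidase in muscle, stood at 17.4 and 0.970 CPM in AF0 and 168 and 129 CPM in NF0, and Sh3bgr at 12.7 and 8.49 CPM in AF0 and 133 and 95.9 CPM in NF0. In each of these 7 genes AF0_1 lay above AF0_2, and 1 well of AF0_1 held 21542 CPM of cardiomyocyte markers. Without AF0_1 the log2 ratio was -6.29 for Myh6, -6.33 for Tnni3, -5.92 for Actc1 and -7.16 for Cox6a2, against -4.94, -4.49, -4.34 and -4.45 in all wells. In wells with an Xist UMI and no Y-linked UMI, 5 of 10 compared cardiomyocyte markers were lower in all 4 pairs, and with wells led by another type left out, 7 of 7. Those led wells were found partly by these same markers.

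Matrix genes showed no common direction. Of 17 compared collagen chains, 0 were higher and 2 were lower in AF0, with a median log2 ratio of -0.63 (0 higher and 4 lower of 17 in Xist-selected wells), beside 0.13 over all genes. Col14a1, a collagen that binds fibril surfaces, stood at 1.49 and 1.70 CPM in AF0 and 76.6 and 88.6 CPM in NF0 (52.5-fold lower in AF0, interval 33.9 to 86.1). Col11a1, a minor fibrillar collagen, stood at 92.8 and 87.6 CPM in AF0 and 264 and 226 CPM in NF0 (2.64-fold lower in AF0, interval 2.47 to 2.82). Col4a1, a chain of basement membrane collagen, was at 1288 and 1133 CPM in AF0 and 2345 and 2512 CPM in NF0, and Col5a2, a fibrillar chain, at 1242 and 909 CPM in AF0 and 996 and 993 CPM in NF0, so the first was short of the 2-fold line in some pairs and the second nearly level. Col3a1, the collagen of fine reticular fibres and one of the markers, was at 366 and 367 CPM in AF0 and 212 and 207 CPM in NF0, a log2 ratio of 0.82 (interval 0.75 to 0.88). Its adult pools lay above both neonatal pools without reaching 2-fold.

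Small proteoglycans and matricellular proteins had members on both sides. Of 18 compared, 5 were higher and 2 (Aspn and Postn) were lower, with a median of 0.28 (5 higher and 3 lower of 18 in Xist-selected wells). Dcn, decorin, a collagen-binding proteoglycan, stood at 508 and 359 CPM in AF0 and 68.2 and 91.1 CPM in NF0 (4.79-fold higher in AF0, interval 4.53 to 5.06). Without wells led by another type's markers its log2 ratio was 2.07, against 2.26 in all wells. Prelp, another leucine-rich proteoglycan, stood at 159 and 237 CPM in AF0 and 52.8 and 46.2 CPM in NF0 (4.42-fold higher in AF0, interval 4.10 to 4.76). Of the CCN family of matricellular proteins, Ccn1 stood at 386 and 386 CPM in AF0 and 77.0 and 79.4 CPM in NF0 (4.90-fold higher in AF0, interval 4.63 to 5.19), Ccn2 at 1041 and 916 CPM in AF0 and 259.8 and 366 CPM in NF0 (2.83-fold higher in AF0, interval 2.74 to 2.91) and Ccn5 at 267 and 257 CPM in AF0 and 68.0 and 61.9 CPM in NF0 (4.11-fold higher in AF0, interval 3.85 to 4.39). The markers of the matrix list thus split, with decorin higher and periostin lower in the adult wells. Lum, lumican, was at 2.98 and 8.85 CPM in AF0 and 12.1 and 17.1 CPM in NF0, too close between AF0_2 and NF0_1 to be called. Fn1, fibronectin, was at 2945 and 2016 CPM in AF0 and 2416 and 2613 CPM in NF0 and Sparc, a collagen-binding glycoprotein, at 2934 and 3051 CPM in AF0 and 2426 and 2565 CPM in NF0, and the pools overlapped between ages for Fn1 but not for Sparc.

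Basement membrane genes were mostly level, with 1 of 12 higher, 2 lower and a median of -0.02 (1 higher and 1 lower of 12 in Xist-selected wells). Smoc1, a calcium-binding basement membrane protein, stood at 86.4 and 44.97 CPM in AF0 and 1.34 and 5.47 CPM in NF0 (13.3-fold higher in AF0, interval 10.7 to 16.8). Its relative Smoc2 stood at 3.48 and 8.12 CPM in AF0 and 19.1 and 32.5 CPM in NF0 (4.403-fold lower in AF0, interval 3.48 to 5.63), and Npnt, nephronectin, at 18.9 and 22.1 CPM in AF0 and 44.6 and 52.0 CPM in NF0 (2.39-fold lower in AF0, interval 2.08 to 2.75). The related genes Smoc1 and Smoc2 therefore differed in opposite directions. Of 17 elastic fibre and crosslinking genes, 1 was higher and 3 were lower, with a median of -0.18 (2 higher and 3 lower of 16 in Xist-selected wells). Efemp1, fibulin 3, stood at 199 and 187 CPM in AF0 and 13.0 and 17.7 CPM in NF0 (11.5-fold higher in AF0, interval 10.3 to 13.0). Fbn2, the fibrillin of developing tissue, stood at 0.248 and 0.727 CPM in AF0 and 21.3 and 19.3 CPM in NF0 (34.7-fold lower in AF0, interval 16.7 to 86.9), while Fbn1, the main fibrillin of later life, was at 259 and 203 CPM in AF0 and 269 and 289 CPM in NF0. Ltbp2 and Ltbp4, latent TGF-beta binding proteins, stood at 3.72 and 7.88 CPM in AF0 and 64.7 and 25.4 CPM in NF0 (5.46-fold lower in AF0, interval 4.33 to 6.97) and at 8.94 and 12.4 CPM in AF0 and 50.9 and 45.6 CPM in NF0 (4.18-fold lower in AF0, interval 3.49 to 5.04). For Ltbp2 the log2 ratio was -2.45, and -3.31 without NF0_2, and its call was lost without cycling wells. Lox, lysyl oxidase, which crosslinks collagen and elastin, was at 2247 and 2020.1 CPM in AF0 and 946 and 1202 CPM in NF0, a log2 ratio of 0.88, short of the 2-fold line in at least 1 pair.

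Among 21 proteases and inhibitors of the matrix, 5 were higher and 3 lower, with a median of 0.13 (5 higher and 1 lower of 21 in Xist-selected wells). Mmp3, given above, and Mmp10 were among the higher genes. Timp1, an inhibitor of metalloproteinases, stood at 2432 and 2534 CPM in AF0 and 843 and 970.3 CPM in NF0 (2.67-fold higher in AF0, interval 2.62 to 2.72). Timp3, its matrix-bound relative, stood at 455 and 418 CPM in AF0 and 63.6 and 87.5 CPM in NF0 (5.29-fold higher in AF0, interval 5.002 to 5.59). Serpine2, an inhibitor of serine proteases, was lower, at 64.8 and 70.2 CPM in AF0 and 189.6 and 197 CPM in NF0 (2.85-fold lower in AF0, interval 2.64 to 3.07). Adam12 and Adamts12 were the other lower genes, Adam12 at 9.68 and 6.55 CPM in AF0 and 20.1 and 39.0 CPM in NF0.

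Contractile genes gave no common shift, with 1 of 17 higher, 1 lower and a median of 0.024 (1 higher and 1 lower of 18 in Xist-selected wells). Acta2, smooth muscle actin, the usual myofibroblast marker, was at 1271 and 1568 CPM in AF0 and 2225 and 2533 CPM in NF0, a log2 ratio of -0.74 (interval -0.76 to -0.71). Tagln, transgelin, was at 1257 and 1566 CPM in AF0 and 1283 and 1496 CPM in NF0, with pools that overlapped. Cnn1, calponin 1, was the member that was higher, at 48.4 and 57.5 CPM in AF0 and 6.89 and 6.01 CPM in NF0 (8.74-fold higher in AF0, interval 7.22 to 10.7), and Des, the muscle intermediate filament desmin, the one that was lower, at 4.47 and 2.79 CPM in AF0 and 44.6 and 21.3 CPM in NF0. Desmin is also made by cardiomyocytes, whose markers were lower in AF0 too.

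Of 22 receptors and transcription factors of fibroblasts, 5 were higher and 1 lower, with a median of 0.39 (4 higher and 3 lower of 21 in Xist-selected wells). The higher ones included Tbx18, a T-box factor of the epicardium, at 94.8 and 98.1 CPM in AF0 and 30.4 and 36.8 CPM in NF0 (2.76-fold higher in AF0, interval 2.51 to 3.03), and Osr1, a zinc finger factor, at 59.3 and 41.7 CPM in AF0 and 13.0 and 13.0 CPM in NF0 (3.65-fold higher in AF0, interval 3.15 to 4.24). Foxc1 and Foxc2, forkhead factors, stood at 8.69 and 24.4 CPM in AF0 and 2.30 and 4.14 CPM in NF0 and at 43.9 and 28.7 CPM in AF0 and 13.0 and 12.2 CPM in NF0. Their calls rested on pools close to the 2-fold line. The log2 ratio of Foxc1 was 2.39, and 1.25 without AF0_2, where its mean level was too low for comparison. Under most alternatives 1 or both of the pair were not called. Ly6a, the surface antigen Sca-1, stood at 15.1 and 22.9 CPM in AF0 and 3.25 and 2.47 CPM in NF0 (7.62-fold higher in AF0, interval 5.66 to 10.4). Thy1, a surface glycoprotein of fibroblasts, was at 114 and 127 CPM in AF0 and 225 and 291 CPM in NF0, and Ddr2, a collagen receptor, at 89.1 and 172 CPM in AF0 and 94.6 and 107 CPM in NF0, neither of them called. Mef2c, a factor of muscle and fibroblast lineages, was the lower one, at 5.21 and 10.1 CPM in AF0 and 30.4 and 29.8 CPM in NF0. Mesothelial markers, some of which epicardial cells share, were higher in AF0 as given above, with Lrrn4 at 75.7 and 60.0 CPM in AF0 and 0.766 and 0.267 CPM in NF0 and Upk3b at 61.6 and 55.5 CPM in AF0 and 3.64 and 5.94 CPM in NF0, while the keratins Krt8 and Krt18 stayed at or below 3.23 CPM in every pool and Wt1 at or below 2.42 CPM. Of the mesothelial members too low to compare, Krt19 had a log2 ratio of -0.96. That of Msln was 5.22, a bound because NF0 held no UMI of it. The part of epicardial or mesothelial cells in these values was not tested.

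Fetal growth genes leaned to the neonatal wells, with 3 of 13 imprinted and fetal genes lower, 1 higher and a median of -0.68 (1 higher and 1 lower of 13 in Xist-selected wells). Slc38a4, an amino acid transporter, stood at 0.248 and 0.970 CPM in AF0 and 30.1 and 24.2 CPM in NF0 (35.03-fold lower in AF0, interval 18.3 to 77.0). Grb10, an adaptor that restrains growth signalling, stood at 50.4 and 71.2 CPM in AF0 and 239.5 and 198 CPM in NF0 (3.24-fold lower in AF0, interval 3.001 to 3.50). Igf2bp1, a fetal RNA-binding protein, stood at 6.45 and 5.58 CPM in AF0 and 27.8 and 25.2 CPM in NF0 (4.404-fold lower in AF0, interval 3.44 to 5.72). Plagl1, a zinc finger factor, was higher instead, at 65.3 and 50.1 CPM in AF0 and 21.6 and 13.7 CPM in NF0 (3.50-fold higher in AF0, interval 3.06 to 4.01), but without wells over 500 CPM of endothelial markers its log2 ratio was 0.51, against 1.81 in all wells, and its call was lost. In wells with an Xist UMI and no Y-linked UMI, the log2 ratios of Slc38a4, Grb10 and Igf2bp1 were -5.23, -1.28 and -3.05, and only Slc38a4 was called there.

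**Figure D3:**
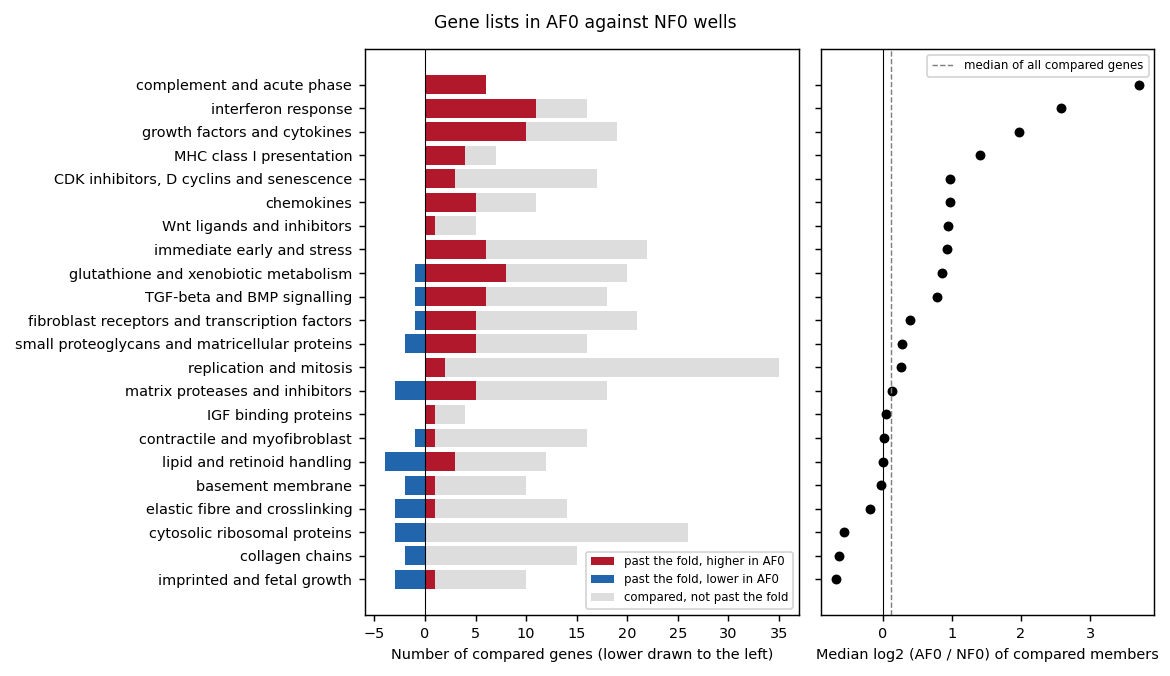
Left, for each gene list the number of compared genes higher, lower or not called in AF0. Right, the median log2 ratio of AF0 to NF0 of the compared members, with a dashed line at the median of all compared genes, 0.13. Complement, interferon and growth factor lists lie farthest to the right, and the imprinted, collagen and ribosomal lists lie to the left of 0.

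Secreted signals were weighted to the adult wells. Of 19 growth factors and cytokines, 10 were higher and 0 lower in AF0, with a median of 1.97 (11 higher and 0 lower of 20 in Xist-selected wells). Il6, a cytokine of the acute phase, stood at 69.5 and 77.0 CPM in AF0 and 3.64 and 2.54 CPM in NF0 (26.4-fold higher in AF0, interval 20.2 to 35.2). Angptl4, an inhibitor of lipoprotein lipase, stood at 63.6 and 91.2 CPM in AF0 and 1.91 and 5.40 CPM in NF0 (18.2-fold higher in AF0, interval 14.7 to 22.9), and Lpl itself was lower in the same wells. Ligands of the EGF receptor family were among the higher genes, with Ereg, epiregulin, at 241 and 216 CPM in AF0 and 58.0 and 41.9 CPM in NF0 (4.86-fold higher in AF0, interval 4.51 to 5.24) and Hbegf, heparin-binding EGF, at 509.9 and 592 CPM in AF0 and 182 and 232 CPM in NF0 (2.58-fold higher in AF0, interval 2.48 to 2.68). Bdnf, a neurotrophin, stood at 329 and 297 CPM in AF0 and 85.4 and 66.9 CPM in NF0 (4.29-fold higher in AF0, interval 4.03 to 4.56), and Kitl, stem cell factor, at 74.5 and 94.1 CPM in AF0 and 8.62 and 20.8 CPM in NF0 (4.98-fold higher in AF0, interval 4.41 to 5.62). Fgf7, Lif and Nrg1 were also higher. Csf1, the macrophage growth factor, was at 1764 and 1499 CPM in AF0 and 808 and 714 CPM in NF0 and Pdgfa at 385 and 376 CPM in AF0 and 162 and 211 CPM in NF0, with adult pools above neonatal ones but short of 2-fold in at least 1 pair.

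Of 19 genes of TGF-beta and BMP signalling, 6 were higher and 1 was lower, with a median of 0.79 (5 higher and 1 lower of 19 in Xist-selected wells). The ligand subunits Inhba and Inhbb, of activins, stood at 649 and 620.2 CPM in AF0 and 175 and 199 CPM in NF0 (3.27-fold higher in AF0, interval 3.14 to 3.40) and at 57.3 and 35.4 CPM in AF0 and 2.68 and 15.3 CPM in NF0 (3.54-fold higher in AF0, interval 3.04 to 4.14). Fst, follistatin, which binds and blocks activins, was higher too, at 140.3 and 146 CPM in AF0 and 21.6 and 33.8 CPM in NF0 (4.70-fold higher in AF0, interval 4.29 to 5.16). Bmp4, a ligand of the BMP branch, stood at 72.0 and 70.7 CPM in AF0 and 21.1 and 14.3 CPM in NF0 (4.42-fold higher in AF0, interval 3.89 to 5.04). The receptor Tgfbr2 and the protease Bmp1 were 3.78 and 2.60-fold higher. Id2 and Id3, transcriptional targets of BMP signals, were at 141 and 176 CPM in AF0 and 172 and 206 CPM in NF0 and at 373 and 426 CPM in AF0 and 385 and 574 CPM in NF0, with pools that overlapped between ages. Ligands and a receptor were thus higher in AF0 without higher Id genes.

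In the smaller signalling lists, Frzb, a secreted Wnt inhibitor, was the single called gene among 5 Wnt genes (0 higher and 0 lower of 5 in Xist-selected wells), at 110.0 and 132 CPM in AF0 and 45.4 and 34.7 CPM in NF0 (3.33-fold higher in AF0, interval 3.05 to 3.64), and Igfbp4, which binds insulin-like growth factors, the single one among 4 binding proteins (0 higher and 0 lower of 5 there), at 115 and 149 CPM in AF0 and 33.7 and 38.0 CPM in NF0 (3.75-fold higher in AF0, interval 3.44 to 4.09). Igfbp7 was at 686 and 707 CPM in AF0 and 694 and 743 CPM in NF0, level between the ages. Cxcl12, a chemokine that the study's text names, was at 221 and 237 CPM in AF0 and 199 and 182 CPM in NF0, within 2-fold in all pairs.

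The chemokine and complement genes that could be compared were higher in the adult wells or not called, with none lower. Members without a UMI in one group were the chemokines Ccl11, Cxcl9 and Cxcl13 in AF0, and Orm1 in AF0 and Cfb in NF0 of the complement and acute phase list. None of these was called. Of 11 chemokines, 5 were higher, with a median of 0.97 (5 higher and 0 lower of 9 in Xist-selected wells). Ccl7, a monocyte chemokine, stood at 1429 and 2168 CPM in AF0 and 602 and 568 CPM in NF0 (3.34-fold higher in AF0, interval 3.26 to 3.41). Ccl8 stood at 29.8 and 30.1 CPM in AF0 and 0.383 and 1.401 CPM in NF0 (26.3-fold higher in AF0, interval 17.3 to 42.1), Ccl20 at 38.0 and 48.7 CPM in AF0 and 9.96 and 2.27 CPM in NF0 and Cxcl16 at 128 and 109 CPM in AF0 and 52.1 and 46.6 CPM in NF0. Ccl2, the best known monocyte chemokine, was at 2304 and 3337 CPM in AF0 and 1677 and 1763 CPM in NF0, a log2 ratio of 0.78, and was not called. All 6 compared complement and acute phase genes were higher, with a median of 3.71 (6 higher and 0 lower of 7 in Xist-selected wells). C3, the central complement component, stood at 63.3 and 17.6 CPM in AF0 and 0.957 and 0.934 CPM in NF0 (34.7-fold higher in AF0, interval 21.9 to 58.2), with AF0_1 above AF0_2. Serping1, an inhibitor of complement activation, was 4.04-fold higher. Lcn2, an iron-siderophore binder, stood at 59.6 and 41.8 CPM in AF0 and 1.34 and 1.802 CPM in NF0 (28.3-fold higher in AF0, interval 20.04 to 41.3), Saa3, a serum amyloid, at 38.2 and 47.9 CPM in AF0 and 1.91 and 2.07 CPM in NF0 (22.04-fold higher in AF0, interval 16.04 to 31.1) and Ptx3, a pentraxin, at 180.0 and 249 CPM in AF0 and 39.3 and 28.4 CPM in NF0 (7.25-fold higher in AF0, interval 6.65 to 7.92).

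Genes of the interferon response that could be compared lay on the adult side. Interferons act through receptors that activate STAT factors, which bind interferon-stimulated response elements in promoters. Of 34 members, 16 could be compared, all 16 had a log2 ratio above 0, 11 were called higher and the median was 2.57 (10 higher and 0 lower of 13 in Xist-selected wells). Ifit1, which binds viral RNA, stood at 66.3 and 41.3 CPM in AF0 and 0.383 and 1.07 CPM in NF0 (55.6-fold higher in AF0, interval 34.9 to 94.5), and its relative Ifit3 at 83.9 and 56.5 CPM in AF0 and 8.62 and 4.47 CPM in NF0 (11.8-fold higher in AF0, interval 9.69 to 14.5). Bst2, tetherin, which holds back budding virus, stood at 115 and 66.6 CPM in AF0 and 9.38 and 7.07 CPM in NF0 (10.7-fold higher in AF0, interval 9.07 to 12.8). Gbp7, a guanylate-binding protein, stood at 58.1 and 58.7 CPM in AF0 and 12.8 and 6.61 CPM in NF0 (7.12-fold higher in AF0, interval 6.01 to 8.48), and Ddx58, the RNA sensor RIG-I, at 61.8 and 42.5 CPM in AF0 and 4.60 and 13.9 CPM in NF0 (4.24-fold higher in AF0, interval 3.64 to 4.95). For each of these genes the levels of both adult pools were well above both neonatal ones. Members at 0 in one group were Mx1 and Mx2 in AF0 and Oas2 and Oas3 in NF0, all too low in both groups to compare. The list's summed level was 1134 and 739.8 CPM in AF0 and 184 and 188 CPM in NF0, with AF0_1 above AF0_2.

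The promoters of 4 of these genes are shown with the letters of an interferon-stimulated response element, which most called interferon genes held. Each is a stretch of 100 bases on its gene's strand, from the RefSeq promoter table of build GRCm38.p6 (mm10), and capitals mark the element, read as GAAA, any 2 bases and GAAA again, or its reverse complement.
Bst2, chr8:71537548-71537647, minus strand: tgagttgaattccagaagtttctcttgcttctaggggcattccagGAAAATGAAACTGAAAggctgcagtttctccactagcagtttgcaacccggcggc
Ifit3, chr19:34583328-34583427, plus strand: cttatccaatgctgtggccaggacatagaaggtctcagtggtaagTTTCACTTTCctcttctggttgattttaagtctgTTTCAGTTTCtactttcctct
Gbp7, chr3:142530238-142530337, plus strand: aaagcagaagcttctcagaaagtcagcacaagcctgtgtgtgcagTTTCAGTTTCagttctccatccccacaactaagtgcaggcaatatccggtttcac
Ifit1, chr19:34640740-34640839, plus strand: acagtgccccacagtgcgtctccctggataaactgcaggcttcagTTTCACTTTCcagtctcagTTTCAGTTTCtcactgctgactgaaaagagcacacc
The window searched ran from 250 bases before to 50 after each gene's start, on both strands. This element was found in 1079 of 27025 promoters in the table (3.99%) and in 233 of the 6168 compared genes with a promoter there (3.78%). It was found in 33 of 341 genes higher in AF0 (9.68%) and in 3 of 132 lower genes (2.27%). Of the 9 interferon genes higher in AF0 that had a promoter in the table, 7 held it (77.8%). Among all 26 members of the interferon list with a promoter there, called or not, 16 held it (61.5%), and among the 13 compared ones 8 did (61.5%). The element was thus common in the list as a whole. The windows of Bst2, Ifit3 and Ifit1 held 2 matches each, which in Bst2 overlap, and that of Gbp7 held 1. A match is a description of the letters and not a shown binding site.

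Of 7 compared genes of MHC class I presentation, 4 were higher, with a median of 1.41 (4 higher and 0 lower of 8 in Xist-selected wells). H2-K1 and H2-D1, classical class I heavy chains with near-identical relatives, stood at 144 and 133 CPM in AF0 and 22.8 and 29.8 CPM in NF0 (4.89-fold higher in AF0, interval 4.44 to 5.38) and at 205 and 150.3 CPM in AF0 and 46.0 and 66.1 CPM in NF0 (2.76-fold higher in AF0, interval 2.57 to 2.96). Tapbp, tapasin, which loads peptides, stood at 94.8 and 88.7 CPM in AF0 and 25.1 and 39.2 CPM in NF0 (2.55-fold higher in AF0, interval 2.32 to 2.80). B2m, the shared light chain, was at 2022 and 1725 CPM in AF0 and 1151 and 1136 CPM in NF0, a log2 ratio of 0.68, and Psmb10, an immunoproteasome subunit, at 51.1 and 60.0 CPM in AF0 and 78.9 and 73.6 CPM in NF0, a log2 ratio of -0.39. In Xist-selected wells the log2 ratios of H2-D1 and Tapbp were 0.51 and 0.96, against 1.46 and 1.35 in all wells, and neither was called.

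Genes of replication and mitosis differed little, with 2 of 35 higher, 0 lower and a median of 0.27 (0 higher and 0 lower of 35 in Xist-selected wells). Mki67, the proliferation marker, was at 179 and 166 CPM in AF0 and 121 and 96.3 CPM in NF0. Cenpe, a kinetochore motor, was called at 171 and 169 CPM in AF0 and 63.0 and 58.8 CPM in NF0 (2.83-fold higher in AF0, interval 2.64 to 3.04), and Plk1, a mitotic kinase, at 37.2 and 31.2 CPM in AF0 and 9.38 and 12.5 CPM in NF0 (2.84-fold higher in AF0, interval 2.41 to 3.35). The list held over 0.2% of UMIs in 42 of 77 and 84 of 116 AF0 wells and in 73 of 185 and 72 of 160 NF0 wells. That line lay near the median well, at 2145 and 2565 CPM in AF0 and 1525 and 1820 CPM in NF0. It therefore does not single out dividing cells. The highest 10% of wells went the other way, starting at 4355 and 4325 CPM in AF0 and 5038 and 4902 CPM in NF0. The median well was shallowest in NF0_1, and depth was not matched for these shares and levels.

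Among 17 CDK inhibitors, D cyclins and senescence genes, 3 were higher and 0 lower, with a median of 0.98 (2 higher and 0 lower of 16 in Xist-selected wells). Cdkn2a, which encodes the inhibitors INK4A and ARF, stood at 41.0 and 37.8 CPM in AF0 and 0.957 and 0.801 CPM in NF0 (46.2-fold higher in AF0, interval 28.5 to 80.0), and its neighbour Cdkn2b, which encodes INK4B, at 35.5 and 41.6 CPM in AF0 and 3.83 and 7.41 CPM in NF0 (6.11-fold higher in AF0, interval 5.03 to 7.46). Mdm2, the ubiquitin ligase of the tumour suppressor Trp53, stood at 217 and 193 CPM in AF0 and 83.7 and 93.1 CPM in NF0 (2.21-fold higher in AF0, interval 2.08 to 2.35). Cdkn1a, the inhibitor induced by Trp53, was at 935 and 768 CPM in AF0 and 1074 and 1126 CPM in NF0, a log2 ratio of -0.43. Genes of the Cdkn2 locus were thus higher in AF0 while Cdkn1a was not, and Ccnd2, cyclin D2, was at 2679 and 2908 CPM in AF0 and 1200.5 and 1342 CPM in NF0 and not called.

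All 22 compared immediate early and stress genes had a log2 ratio above 0, with 6 called and a median of 0.93 (8 higher and 0 lower of 22 in Xist-selected wells). Fosb and Fos, subunits of the AP-1 factor, stood at 78.9 and 69.0 CPM in AF0 and 8.62 and 8.61 CPM in NF0 (8.39-fold higher in AF0, interval 7.12 to 9.93) and at 99.5 and 72.6 CPM in AF0 and 27.2 and 26.3 CPM in NF0 (3.07-fold higher in AF0, interval 2.76 to 3.42). Ier3 was 4.79-fold higher and Nr4a1, a nuclear receptor, 2.62-fold. Hspa1a and Hspa1b, near-identical inducible heat shock genes, were 4.15 and 2.83-fold higher, with reads that counting could split either way.

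Redox and detoxifying genes leaned to the adult wells, with 8 of 21 higher, 1 lower and a median of 0.85 (5 higher and 1 lower of 19 in Xist-selected wells). Sod3, the extracellular superoxide dismutase, stood at 119.9 and 84.3 CPM in AF0 and 1.72 and 1.27 CPM in NF0 (69.3-fold higher in AF0, interval 47.7 to 105). Cyp1b1, a cytochrome P450, stood at 406 and 389.9 CPM in AF0 and 69.1 and 69.5 CPM in NF0 (5.69-fold higher in AF0, interval 5.36 to 6.04), and Gpx3, a secreted glutathione peroxidase, at 128 and 134 CPM in AF0 and 23.6 and 36.6 CPM in NF0 (3.97-fold higher in AF0, interval 3.62 to 4.35). Aldh1a1, a retinaldehyde dehydrogenase, stood at 224 and 218 CPM in AF0 and 101 and 95.8 CPM in NF0 (2.27-fold higher in AF0, interval 2.14 to 2.41), and Nqo1, a quinone reductase, at 63.1 and 56.1 CPM in AF0 and 17.4 and 23.1 CPM in NF0. Mgst3, a microsomal glutathione transferase, was the lower gene, at 14.4 and 20.9 CPM in AF0 and 57.4 and 71.3 CPM in NF0 (3.61-fold lower in AF0, interval 3.14 to 4.17).

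Lipid and retinoid genes went both ways, with 3 of 16 higher and 4 lower (3 higher and 3 lower of 16 in Xist-selected wells). Ptgis, prostacyclin synthase, stood at 312 and 319.5 CPM in AF0 and 117 and 146 CPM in NF0 (2.29-fold higher in AF0, interval 2.18 to 2.40), which put 2 enzymes of prostanoid synthesis, Ptgs2 and Ptgis, on the adult side. Lpl, Cd36, a fatty acid carrier at 3.23 and 0.242 CPM in AF0 and 21.8 and 68.2 CPM in NF0, Fabp3, the heart fatty acid binding protein at 10.4 and 2.06 CPM in AF0 and 79.3 and 52.6 CPM in NF0, and Fabp5 were lower. Cardiomyocytes and macrophages also make these transcripts, and without wells led by another type's markers the log2 ratios of Lpl, Cd36 and Fabp3 were -3.86, -6.30 and -2.79, against -4.35, -5.52 and -3.63 in all wells. Apoe, a lipid carrier that macrophages make in bulk, had a log2 ratio of -2.08 in all wells and of 0.44 without those wells.

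Ribosomal protein genes lay on the neonatal side as a body, with 29 of 29 log2 ratios below 0, 3 called lower and a median of -0.56 (0 higher and 1 lower of 29 in Xist-selected wells). Rps27, Rps18 and Rpl41 were 2.43, 2.09 and 2.41-fold lower. Rps14 was at 1699.8 and 1817 CPM in AF0 and 3613 and 3778 CPM in NF0 and Rpl4 at 1166 and 1611 CPM in AF0 and 1774 and 2017 CPM in NF0. Their sum was 18829 and 19777 CPM in AF0 and 29592 and 29837 CPM in NF0, so the adult pools stood close together and below both neonatal pools. With TMM scaling the list's median was -0.67. Many pseudogenes of these genes share their sequence, and counting could split such reads.

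Some calls of single genes were lost in Xist-selected wells, where pools held as few as 20 wells. Among the genes described above these were Tnnc1, Myh6, Ttn, Sh3bgr, Cox6a2, Actc1, Notch3, Npnt, Adam12, Des, Tbx18, Foxc2, Ly6a, Grb10, Igf2bp1, Hbegf, Igfbp4, Bmp1, Tgfbr2, Frzb, Cxcl16, Ifit3, H2-D1, Tapbp, Cenpe, Plk1, Mdm2, Fos, Nr4a1, Aldh1a1, Nqo1, Cd36, Rps27 and Rps18. The part of sex in the differences of these genes was not tested. The call of Ddx3y had to be lost there, as the selection left out every well with a UMI of this Y-linked gene. Fbn2 (without NF0_1), C3 (without AF0_1), Ly6a and Foxc1 (both without AF0_2) fell below the 10 CPM needed for comparison. Their calls were lost for that reason, since leaving out 1 pool cannot undo a 2-fold gap held in all 4 pairs.

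In a pool, more wells with a transcript and more of it per well cannot be told apart, so the wells were also read singly for 6 of the genes. The median well held 5.58 and 8.03 CPM in AF0_1 and AF0_2 and 558 and 619 CPM in NF0_1 and NF0_2 of Postn, so the difference of the pools was present in the typical well. For Dcn, the medians were 207 and 238 CPM in AF0_1 and AF0_2 and 0 and 36.8 CPM in NF0_1 and NF0_2, and for Gvin1 159 and 182 CPM in AF0_1 and AF0_2 and 0 and 0 CPM in NF0_1 and NF0_2. Col1a1 had medians of 1241 and 1173 CPM in AF0_1 and AF0_2 and 1253 and 1457 CPM in NF0_1 and NF0_2, with wide and overlapping ranges. In wells thinned to 10000 UMIs, which left out 7 of 77 wells of AF0_1, 52 of 185 of NF0_1 and 2 of 160 of NF0_2, a Gvin1 UMI was found in 70.0% and 63.8% of AF0 wells and 1.504% and 3.80% of NF0 wells. Without thinning, the shares were 83.1% and 87.1% of AF0 wells and 3.24% and 14.4% of NF0 wells. Ctla2a was uneven, as the tenth of wells with most of it held 84.8%, 72.6%, 73.7% and 71.6% of its UMIs in AF0_1, AF0_2, NF0_1 and NF0_2, and the median well held 1072 and 885 CPM in AF0_1 and AF0_2 and 52.6 and 57.5 CPM in NF0_1 and NF0_2. Its highest well held 80042 CPM, in AF0_1.

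**Figure D4:**
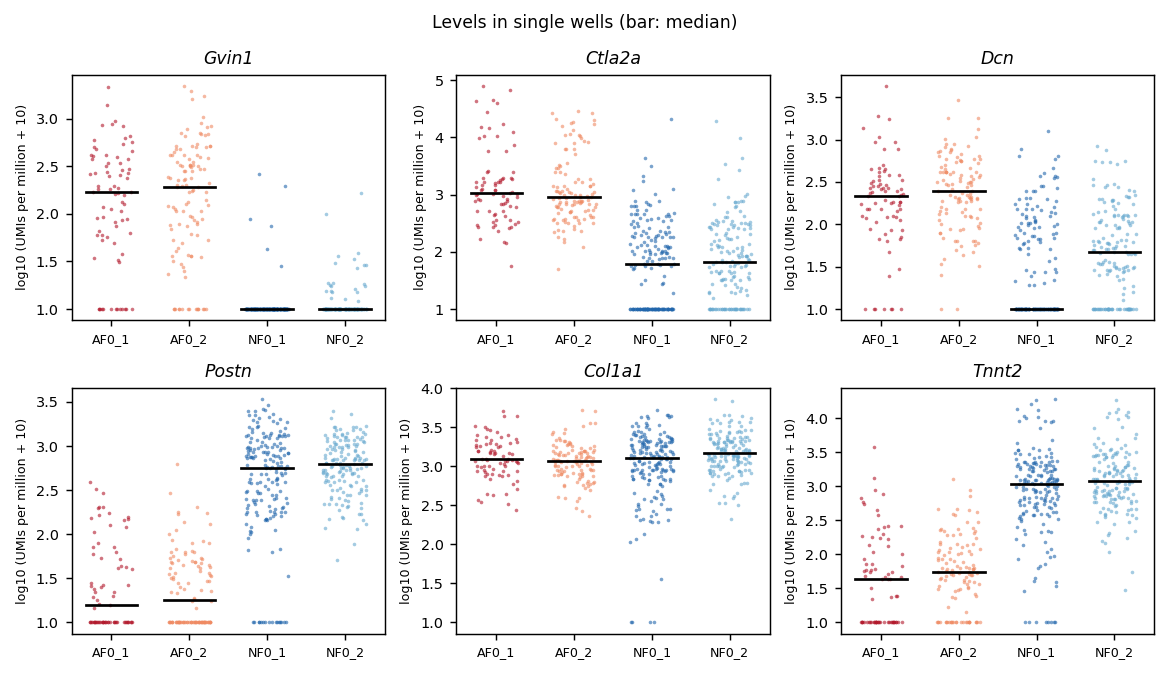
Level in CPM of Postn, Dcn, Ctla2a, Gvin1, Col1a1 and Tnnt2 in single wells of AF0_1, AF0_2, NF0_1 and NF0_2, with 1 point per well and a bar at the median. Postn and Tnnt2 sit higher in NF0 wells and Dcn, Gvin1 and Ctla2a higher in AF0 wells, while Col1a1 overlaps.

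The wells of the same chip named AF1, AF2, NF1 and NF2, without a 0, share no pool with the wells above and are taken to be fibroblasts from co-culture with cardiomyocytes. There, 374 of 8232 genes (4.54%) were higher and 93 (1.13%) lower in AF. Of the 360 genes higher in AF0 that could be compared there, 114 were higher (31.7%) and 7 lower, and of 188 lower genes, 26 were lower (13.8%) and 1 higher. Read the other way, 41.3% of 276 higher and 31.7% of 82 lower co-culture genes were called alike in the 0 wells. Dcn stood at 1112 and 1615 CPM in AF1 and AF2 and 66.1 and 140.4 CPM in NF1 and NF2, and Gvin1 at 129 and 141 CPM in AF1 and AF2 and 29.9 and 3.53 CPM in NF1 and NF2. Postn, in contrast, stood at 243 and 359 CPM in AF1 and AF2 and 425 and 686 CPM in NF1 and NF2, so the neonatal excess was much smaller there. The difference between the 2 settings was not tested.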

How the data were processed

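For the chip, the deposited values are raw UMI counts, 1 column per gene and 1 line per well, beside a report that names each well. Per the study's methods and processing notes, reads passed a barcode and UMI filter, trimming and a contaminant screen, were aligned to mm10 with STAR 2.5.2b and assigned to Ensembl genes with featureCounts (Subread 1.4.6-p1). Whether counting used strand is not given in the sources used here, so overlapping genes, such as Gvin1 with Gm18853, and near-identical genes are uncertain. The table held 28394 gene columns, of which 538 (0.524% of UMIs) matched no symbol. Spike-ins (79 columns) and 34 mitochondrial genes were left out.

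Wells were joined by barcode, summed by name and scaled to CPM over nuclear genes (Python 3.11.15, pandas 2.3.3, numpy 2.4.6). Summing gives deep wells more weight. Intervals were exact conditional ones (scipy 1.17.1). Where a group had no count, the floor of 3 counts over the group gives a bound. TMM factors came from edgeR 4.0.16 in R 4.3.3. The procedure was tested on simulated data. Genes named are the 12 leading ones per direction, the markers, up to 4 most abundant compared and 6 called members of each list, and sex-linked genes, 240 in all, some of which are not reported here. Alternatives changed scaling, filters, fold line, well weighting, depth, wells of other types, cycling wells, likely doublets (the 5% of wells with most UMIs) and each pool in turn. Members and lists were chosen with earlier results of these data known. The bulk tables, the cardiomyocyte chip's counts and the authors' fold changes were not used. Other columns of the report (read totals, well positions) served to describe wells.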

Additional observations from a re-analysis of the deposited data

Results flagged for a closer look

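Some genes were called in 1 direction in the 0 wells while both AF co-culture pools lay on the other side of both NF co-culture pools, and the difference between the settings was not tested for any of them. Of the genes higher in AF0, the log2 ratio of AF to NF in co-culture was below 0 for Upk1b (-3.16 against 3.86 in the 0 wells), Ccn2 (-0.42 against 1.499 in the 0 wells), Bdnf (-0.86 against 2.10 in the 0 wells), Fst (-2.55 against 2.23 in the 0 wells), Bmp4 (-1.93 against 2.14 in the 0 wells), Ccl20 (-1.17 against 3.41 in the 0 wells), Aldh1a1 (-1.21 against 1.18 in the 0 wells). Of the genes lower in AF0, it was above 0 for Col11a1 (0.32 against -1.40) and Serpine2 (1.32 against -1.51) and Rpl41 (0.34 against -1.27). Upk1b, the uroplakin, stood at 5.90 and 1.70 CPM in AF1 and AF2 and 36.2 and 26.4 CPM in NF1 and NF2, and in the 0 wells at 235 and 231 CPM in AF0 and 11.1 and 17.6 CPM in NF0. Fst, follistatin, stood at 39.0 and 16.2 CPM in AF1 and AF2 and 227 and 60.8 CPM in NF1 and NF2, with NF1 far above NF2. Serpine2, the serpin, stood at 244 and 284 CPM in AF1 and AF2 and 83.9 and 136 CPM in NF1 and NF2.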

How the results depend on the processing

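Alternatives numbered 18, 3 of them (wells over 500 CPM of endothelial markers left out, cardiomyocyte marker UMIs and wells over 5000 CPM of them left out, and only wells with an Xist UMI and no Y-linked UMI) chosen after seeing the data. The count of genes higher in AF0 moved from 464 to 142 at a mean level of at least 50 CPM, 936 at 1 CPM, 1080 at a 1.5-fold line and 130 at 4-fold, and the count lower from 211 to 71, 556, 622 and 69. Leaving out 1 pool, which leaves 2 pairs for a gene to pass, gave 666 to 925 higher and 329 to 434 lower. Without AF0_1 the counts were 689 and 329, without AF0_2 925 and 434, without NF0_1 666 and 348, and without NF0_2 924 and 382. The other alternatives gave counts within 1.5 times of the main ones. Of the 131 named genes past the fold, Egfl7, an endothelial gene, changed direction, to a log2 ratio of -0.081 without wells over 500 CPM of endothelial markers, and the other 130 kept theirs in all 18. Egfl7 is 1 of those markers, so that selection acted on its own values. Of these 131, 87 stayed past the fold in wells with an Xist UMI and no Y-linked UMI, where pools were as small as 20 wells. Ddx3y had no UMI in those wells by selection, so its call and direction there carry no information. Leaving out 1 pool also moved the fold of some named genes by over 1.5 times, given here as the log2 ratio reached. Without AF0_1 the ratio moved for C3 to 4.22, Cd36 to -7.86, Cspg4 to -5.53, Ctla2b to 3.59, Fabp3 to -4.85, Myl2 to -5.47, Myl7 to -9.03, Ttn to -5.54. Leaving out AF0_2 moved it for Actc1 to -3.10, C3 to 6.07, Cd36 to -4.12, Cox6a2 to -3.00, Cspg4 to -3.94, Ctla2b to 5.17, Cxcl5 to 4.67, Fabp3 to -2.51, Fbn2 to -6.32, Foxc1 to 1.25, Ier3 to 2.87, Lpl to -3.74, Ltbp2 to -3.26, Ly6k to 4.13, Mef2c to -2.52, Myh6 to -3.78, Myl2 to -3.89, Myl7 to -6.82, Slc38a4 to -6.69, Smoc2 to -3.06, Tnni3 to -3.18, Ttn to -3.78. Without NF0_1 the moves were Ccl20 to 4.32, Thbd to 5.77, and leaving out NF0_2 gave Adam12 to -1.41, Angptl4 to 5.42, Ccl20 to 2.18, Ccl8 to 6.29, Cd36 to -4.16, Cdkn2b to 3.37, Ddx58 to 3.41, Des to -3.74, Emcn to 5.46, Foxc1 to 3.06, Gbp7 to 2.19, Gvin1 to 7.82, Ifit1 to 7.01, Ifit3 to 2.93, Inhbb to 3.99, Kitl to 3.35, Lrrn4 to 6.41, Ly6k to 6.90, Mmp3 to 6.19, Myl7 to -6.85, Smoc1 to 5.45, Smoc2 to -1.54, Thbd to 4.19. Medians of 9 of 30 gene lists changed sign under some alternative, among them those of the basement membrane, elastic fibre, contractile, lipid, IGF binding protein and Wnt lists. No paired analysis was possible because nothing says that equal numbers in the names of AF0 and NF0 wells mark a shared batch, and no test was made. The cause of these moves was not tested.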

Other observations

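Among the called genes outside the naming rule, S100a4 and Lgals1 had the highest levels and were picked after their values were seen. S100a4, a calcium-binding protein often used to mark fibroblasts, stood at 2625 and 2867 CPM in AF0 and 1043 and 942 CPM in NF0, with a log2 ratio of 1.53. Lgals1, galectin 1, a secreted sugar-binding protein, stood at 7908 and 8467 CPM in AF0 and 18173 and 16988 CPM in NF0, with a log2 ratio of -1.06. In both genes the pools of one age lay close together and apart from those of the other.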
